A study of Mus musculus with 35 samples.

Results

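Podocytes wrap the glomerular capillaries from the outside and send secreted signals across the filter to the endothelium. The expression of 10 genes for such signals and for their receptors was followed here, out of 33292 genes measured in podocytes of mice with mutated LIM domains of the transcription factor Lmx1b. The genes were chosen by name. They comprise Vegfa, Vegfb and Vegfc (ligands of the VEGF family), Flt1 (VEGF receptor), Nrp1 and Nrp2 (neuropilins, which are co-receptors of VEGF and of class 3 semaphorins), Angpt1 (angiopoietin ligand of the Tek receptor), Angptl2 (an angiopoietin-like secreted protein), and Sema3g and Sema3a (secreted class 3 semaphorins). All 10 symbols matched a single Ensembl identifier of the table. On GRCm39, Vegfa (ENSMUSG00000023951) lies at chr17:46327919-46343309 on the minus strand, Sema3g (ENSMUSG00000021904) at chr14:30939808-30952309 on the plus strand and Nrp2 (ENSMUSG00000025969) at chr1:62742444-62857854 on the plus strand.

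Podocyte Vegfa acts on the Kdr receptor of the neighbouring endothelial cells, and the capillaries of the adult glomerulus depend on it. Vegfb binds Flt1 and not Kdr. Class 3 semaphorins bind neuropilins, which pass the signal on through plexins. Podocytes make Vegfa and Sema3g, whereas Kdr, Flt1, Flt4, Tek and Tie1 are best known from endothelial cells.

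The samples were 35 libraries, each from the sorted podocytes of a single mouse. Control mice carried Lmx1b+/lox (called WT in the sample labels). The knock-in mice carried Lmx1b H77L/lox, with a mutated LIM-A domain, or Lmx1b C118F/lox, with a mutated LIM-B domain. All mice, controls included, also carried a podocyte-specific rtTA transgene, tetO::Cre and mT/mG on a C57BL/6 background and, as adults, drank 2 mg/ml doxycycline for 7 days. Doxycycline switched on Cre in podocytes. Every control podocyte with recombination therefore had a single wild-type Lmx1b allele left, and the knock-in podocytes only the mutated allele. Mice received the proteasome inhibitor bortezomib (Btz) at 0.3 µg per g body weight every other day, or its solvent DMSO. Each genotype and treatment had 6 mice, apart from the 5 Btz-treated C118F mice. Green fluorescent cells, in which Cre had been active, were sorted on day 7.

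Levels are given as TPM, reads scaled by transcript length and by the total of the library, and can therefore be compared between genes. The libraries held an estimated 5265120 to 24137565 reads (median 19155202), as recovered from the table. Lmx1b itself was transcribed in every mouse, at a median of 71.5 TPM in DMSO-treated controls, 119.8 in H77L and 103.9 in C118F mice, which does not check the point mutations. The 12 podocyte markers summed to 23972 to 39165 TPM in DMSO-treated controls, 6216 to 11052 in H77L mice and 5922 to 13454 in C118F mice, so the label podocyte held in all groups while the marker sums of control and knock-in mice did not overlap. The 12 endothelial markers summed to 12.8 to 85.3 TPM in 34 mice and to 213.4 TPM in DMSO-treated C118F mouse 1, and 1 or 2 of the 12 passed the filter described below in the comparisons with control. In addition to that mouse, DMSO-treated control mouse 1 (leukocyte markers at 429.5 TPM), DMSO-treated control mouse 2 (tubule markers at 2054 TPM) and Btz-treated C118F mouse 2 (lowest depth) stood apart. In bulk RNA, fewer cells of a type and less RNA per cell cannot be told apart.

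The promoters of 3 genes are shown, for the gene with the deepest fall, the most abundant VEGF ligand and the neuropilin with the steepest rise. Each is the 250 bases before the start of the Ensembl canonical transcript, read from GRCm39 on the strand of the gene. Capitals mark GGGCGG on either strand, the only one of 3 motifs searched that was found in these windows.
Sema3g, chr14:30939558-30939807, plus strand: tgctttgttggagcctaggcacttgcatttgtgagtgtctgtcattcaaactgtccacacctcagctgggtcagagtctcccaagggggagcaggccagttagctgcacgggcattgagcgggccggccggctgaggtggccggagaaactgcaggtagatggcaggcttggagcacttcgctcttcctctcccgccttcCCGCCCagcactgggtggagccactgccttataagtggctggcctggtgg
Vegfa, chr17:46343310-46343559, minus strand: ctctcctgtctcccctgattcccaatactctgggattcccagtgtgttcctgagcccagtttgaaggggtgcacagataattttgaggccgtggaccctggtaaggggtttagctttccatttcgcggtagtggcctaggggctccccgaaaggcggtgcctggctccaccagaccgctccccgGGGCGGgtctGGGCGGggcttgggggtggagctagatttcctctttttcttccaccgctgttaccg
Nrp2, chr1:62742194-62742443, plus strand: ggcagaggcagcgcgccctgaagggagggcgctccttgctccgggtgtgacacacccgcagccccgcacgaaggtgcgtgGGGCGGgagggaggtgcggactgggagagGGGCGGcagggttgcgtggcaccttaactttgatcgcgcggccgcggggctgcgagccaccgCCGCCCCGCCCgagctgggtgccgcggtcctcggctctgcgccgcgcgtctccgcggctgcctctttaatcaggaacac
GGGCGG occurred 1 time in the Sema3g window, 2 times in that of Vegfa and 4 times in that of Nrp2, and it was held by 36.4% of 21636 promoters of protein-coding genes of the same length. The windows were 60.8%, 59.6% and 73.2% G or C, against a median of 53.2% over all promoters. TAATTA, an AT-rich motif of homeodomain factors, was held by 5.18% of all promoters and by none of the 3 windows. ACGTG, a form of the core of the hypoxia response element, was held by 17.0% of all promoters and by none of the 3 windows. The other form of that core, GCGTG, was not searched, and the Nrp2 window holds it. A match, or its absence in a window of this length, describes the letters and not the binding of a factor.

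The first question was which of these signals differed between knock-in and control podocytes without Btz. A gene was tested where all mice of a compared group exceeded 1 TPM. Of the 10 genes, 6 met this and were tested with limma over all genes past that filter, with a call at a Benjamini-Hochberg adjusted p under 0.05. In H77L mice treated with DMSO all 6 were called, with Vegfb, Nrp2 and Angptl2 higher and Sema3g, Vegfa and Nrp1 lower, where 22.4% of 10964 genes were called higher and 22.4% lower. In C118F mice 5 were called, with Vegfb and Nrp2 higher and Sema3g, Vegfa and Nrp1 lower, where 13.7% of 10899 genes were called higher and 16.6% lower. Both lines were compared with the same control mice, so their values are given side by side and are not independent of each other. Nrp2 passed the filter only through the knock-in groups, in which it was high. The filter therefore favoured a difference, and nothing is read from its call. The median log2 difference of the tested genes was -0.25 in H77L and -0.31 in C118F mice, against -0.01 and -0.06 over all genes tested.

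**Figure D1:**
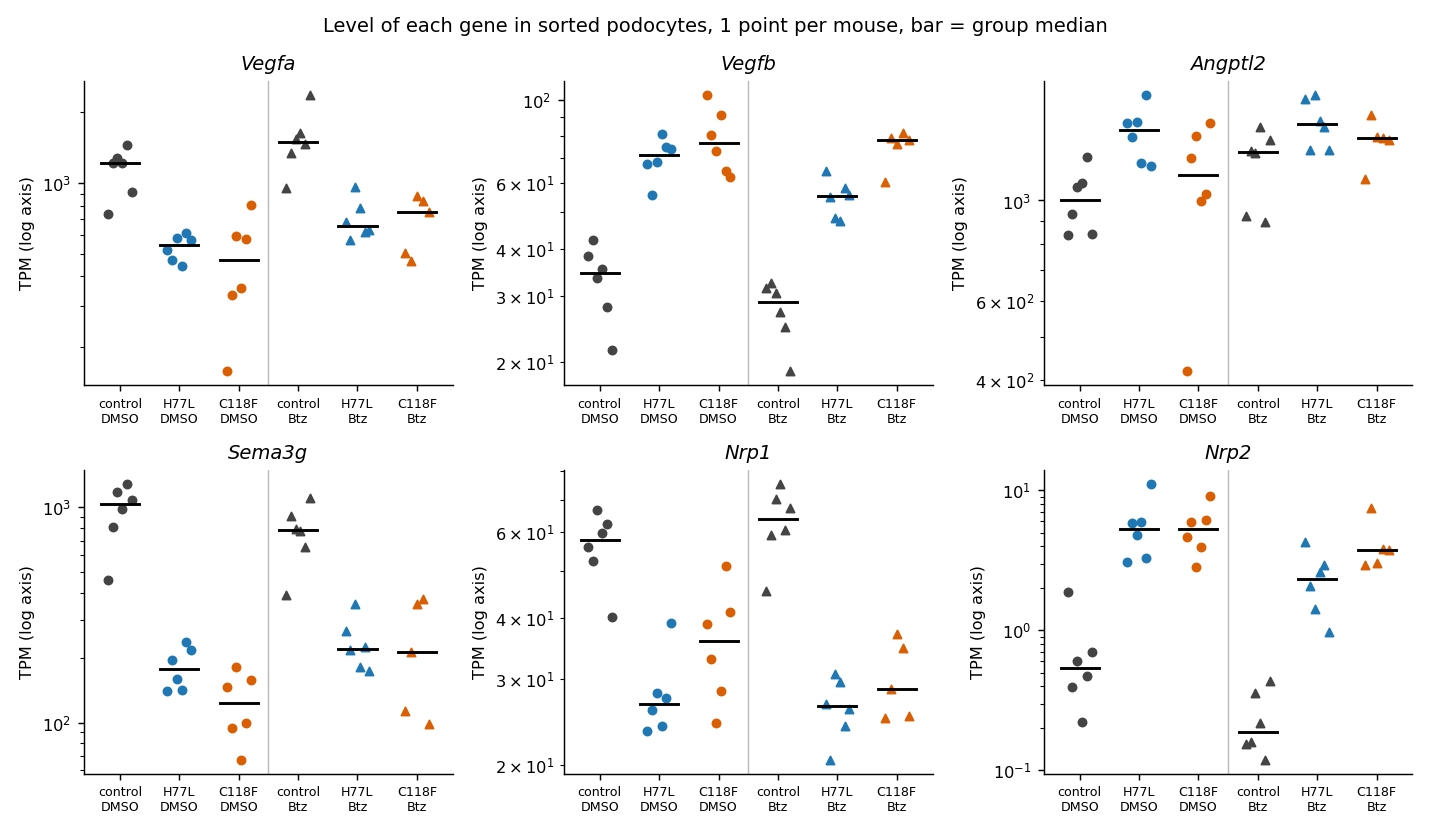
TPM on a log axis (vertical) of the 6 tested genes in each of 35 mice by genotype and treatment (horizontal), with DMSO as circles, Btz as triangles and the group median as a bar. Sema3g, Vegfb and Nrp2 of the knock-in mice do not overlap those of the control mice under the same treatment, whereas the Angptl2 values do.

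Sema3g, which codes for a secreted semaphorin of podocytes, showed the deepest fall. In DMSO-treated control mice it was measured at 458 TPM (lowest), 1030.5 (median) and 1287 (highest), which placed its mean at rank 123 of 33292 genes. In H77L mice the values were 139.5, 176.8 and 236, and in C118F mice 67.1, 122.8 and 181. Every knock-in mouse was thus below every control mouse, and the mean rank was 999 in H77L and 1498 in C118F mice. On the log2(TPM + 1) scale, used for all differences below, Sema3g differed from control by -2.36 (SE 0.22, adjusted p = 1.3e-06) in H77L and -2.95 (SE 0.27, adjusted p = 1.5e-06) in C118F mice, which are folds of 5.14 and 7.75 (limma). The lowest control value belonged to mouse 1, one of the libraries that stood apart, and without the 4 such libraries the differences were -2.66 and -3.31. Sema3g was the only gene of the 10 to pass the stricter cutoffs of the study under DMSO in each line. These cutoffs (adjusted p under 0.001 and a log2 difference beyond 2) were passed by 2.17% of genes in H77L and 2.27% in C118F mice. The study applied them to fold changes from DESeq2, a count model, whereas here they were applied to the limma values. With 0.1 added before the logarithm in place of 1, Nrp2 also passed them in both lines (2.95 and 2.92). It did so too without the 4 libraries that stood apart (2.07 and 2.06). Nrp2 entered these tests only through the knock-in groups, in which it was high, so nothing is read from these passes.

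Vegfa, the main endothelial growth factor of the podocyte, was the most abundant of the 10 genes in DMSO-treated control mice at 739.8, 1218 and 1447 TPM (lowest, median, highest), a mean rank of 95. It was at 444, 543 and 610.5 TPM in H77L mice and at 157.6, 468 and 803 TPM in C118F mice. All H77L mice were below the control mice, and so were 5 of 6 C118F mice. The difference from control was -1.07 (SE 0.15, adjusted p = 6.6e-05) in H77L and -1.41 (SE 0.31, adjusted p = 0.00382) in C118F mice, or folds of 2.10 and 2.66. The lowest C118F value came from mouse 1, the library with the highest endothelial and mesangial marker sums, and without the 4 libraries that stood apart the differences were -1.18 and -1.25.

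Vegfb, the Flt1 ligand, went the other way. Control mice had 21.5, 34.4 and 42.3 TPM, H77L mice 55.5, 71.0 and 81.0 and C118F mice 62.1, 76.7 and 102.9 (lowest, median, highest). No knock-in mouse overlapped the control mice. Vegfb differed from control by 1.08 (SE 0.15, adjusted p = 4.4e-05) in H77L and 1.24 (SE 0.17, adjusted p = 7.4e-05) in C118F mice. Trpt1 overlaps 586 bases of Vegfb on the opposite strand at a median of 22.1 TPM, and whether reads of one were counted for the other was not tested.

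The ratio of Vegfa to Vegfb TPM within a mouse describes both shifts at once. Under DMSO it was 19.3, 36.5 and 51.7 in control mice (lowest, median, highest), 5.48, 7.95 and 8.52 in H77L mice and 1.53, 6.14 and 12.9 in C118F mice. The ratios of the knock-in mice were all below those of the control mice. Vegfa remained the more abundant transcript in all 35 mice.

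The neuropilins also moved in opposite directions. Nrp1, the neuropilin with the higher level in control podocytes, was at 40.1, 57.9 and 66.7 TPM in control, 23.4, 26.7 and 39.0 in H77L and 24.4, 35.9 and 51.2 in C118F mice (lowest, median, highest). H77L mice did not overlap the control mice, and 4 of 6 C118F mice were below all of them. On the log2 scale Nrp1 differed by -0.99 (SE 0.14, adjusted p = 6.7e-05) in H77L and -0.65 (SE 0.17, adjusted p = 0.0116) in C118F mice.

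Nrp2 was the lowest of the 6 tested genes in DMSO-treated control mice at 0.220, 0.541 and 1.87 TPM (lowest, median, highest), or 14 to 115 reads. The highest of these came from control mouse 1, the library with the most leukocyte marker RNA. In H77L mice it was at 3.06, 5.33 and 11.2 TPM and in C118F mice at 2.85, 5.28 and 9.06 TPM, which is above every control mouse in both lines. The mean TPM was 8.01 times that of control in H77L and 7.62 times in C118F mice. Since 1 was added before the logarithm, the fitted log2 differences of 1.92 (SE 0.28, adjusted p = 7.7e-05) and 1.90 (SE 0.26, adjusted p = 7.7e-05) understate this, and with 0.1 added in place of 1 they were 2.95 and 2.92. Without the 4 libraries that stood apart the fitted differences were 2.07 and 2.06. The filter favoured a difference of Nrp2, so nothing is read from its p-values. Under DMSO leukocyte markers summed to 11.7 to 34.4 TPM in H77L, 7.29 to 43.5 in C118F and 5.96 to 429.5 in control mice. Under Btz these sums were 9.46 to 36.2, 15.8 to 22.3 and 2.38 to 14.6 TPM. The part of leukocyte RNA in the Nrp2 values was not tested. The ratio of Nrp1 to Nrp2 was 30.1 to 271 in control mice, 3.49 to 8.37 in H77L and 4.55 to 8.54 in C118F mice.

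Angptl2 overlapped Vegfa in its control level and overlapped between all genotypes. Its TPM was 839.7, 1002 and 1249 in control, 1189.8, 1433 and 1712 in H77L and 419, 1137 and 1486 in C118F mice (lowest, median, highest). Angptl2 differed from control by 0.49 (SE 0.12, adjusted p = 0.00511) in H77L mice, of which 4 of 6 were above all control mice. In C118F mice it was 0.03 (95% confidence interval -0.50 to 0.57, adjusted p = 0.936). The lowest value again belonged to C118F mouse 1, and without the 4 libraries that stood apart the difference was 0.21 (adjusted p = 0.371). Ralgps1 lies over the whole of Angptl2 on the opposite strand, at a median of 1.83 TPM.

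**Figure D2:**
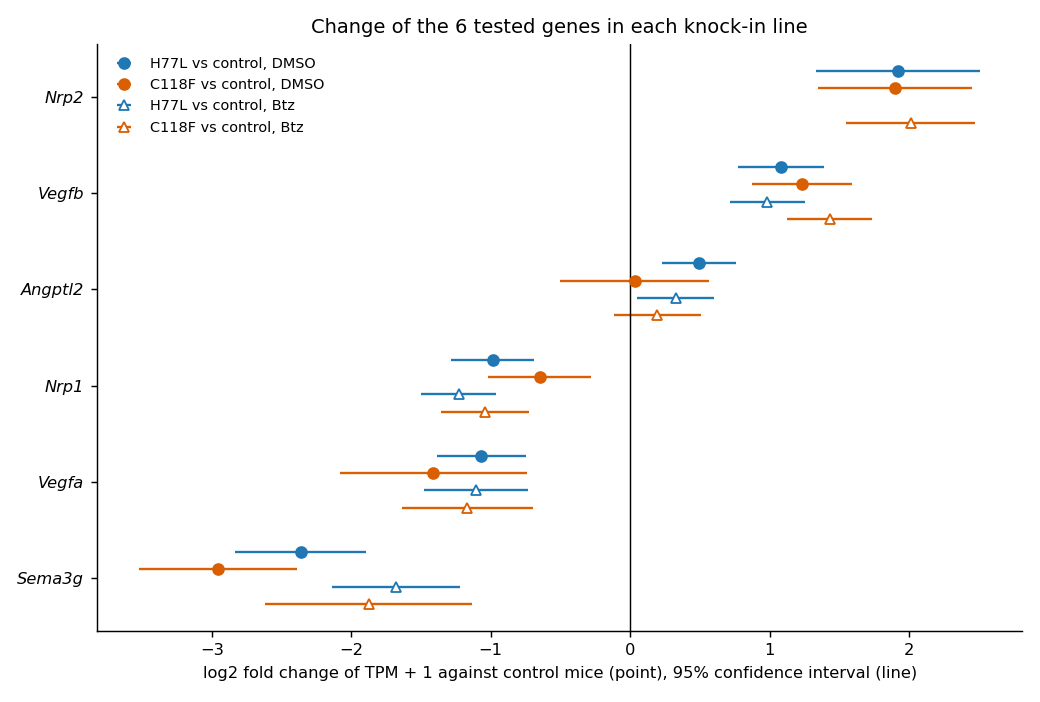
Log2 difference of TPM + 1 from control mice under the same treatment (horizontal, points) with its 95% confidence interval (lines) for the 6 tested genes (vertical) in both lines under DMSO (filled circles) and Btz (open triangles). Sema3g, Vegfa and Nrp1 lie below 0 and Vegfb and Nrp2 above 0 wherever they were tested, and Nrp2 had no test in Btz-treated H77L mice.

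The next question was whether the same signals differed from control under Btz, in mice of their own. In H77L mice 4 of 5 tested genes were called, with Vegfb higher and Sema3g, Vegfa and Nrp1 lower, where 12.5% of 10805 genes were called higher and 11% lower. In C118F mice 5 of 6 were called, with Vegfb and Nrp2 higher and Sema3g, Vegfa and Nrp1 lower, where 15.1% of 10916 genes were called higher and 12.4% lower. The stricter cutoffs were passed by 1.2% of genes and none of the 10 in H77L mice, and by 1.93% of genes and Nrp2 in C118F mice. Nrp2 again passed the filter only through the C118F mice, in which it was high, so nothing is read from its pass.

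Sema3g was at 392, 783 and 1101 TPM in Btz-treated control, 173.5, 221 and 357 in H77L and 98.8, 212 and 376 in C118F mice (lowest, median, highest). Both knock-in lines were below every control mouse. Sema3g differed by -1.68 (SE 0.22, adjusted p = 2.9e-05) in H77L and -1.88 (SE 0.35, adjusted p = 0.00101) in C118F mice. The 5 C118F mice lay apart from each other, with 2 at 98.8 and 112.7 TPM and 2 at 356 and 376 TPM.

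Vegfa reached 955.7, 1504 and 2378 TPM in Btz-treated control, 572, 654.5 and 957.7 in H77L and 467, 755 and 881 in C118F mice (lowest, median, highest). All 5 C118F mice and 5 of 6 H77L mice were below the control mice. The difference of Vegfa was -1.10 (SE 0.18, adjusted p = 2.2e-04) in H77L and -1.17 (SE 0.22, adjusted p = 0.00114) in C118F mice. Vegfb did not overlap between control mice (18.8, 28.8 and 32.3 TPM) and either H77L mice (47.6, 55.2 and 64.3) or C118F mice (60.3, 78.1 and 81.5). Vegfb differed by 0.98 (SE 0.13, adjusted p = 3.0e-05) in H77L and 1.43 (SE 0.14, adjusted p = 4.0e-06) in C118F mice. The Vegfa to Vegfb ratio had a range of 30.4 to 126 in control, 10.4 to 19.8 in H77L and 5.91 to 11.6 in C118F mice, again with every knock-in mouse below every control mouse.

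Nrp1 was at 45.5, 64.0 and 75.6 TPM in Btz-treated control, 20.4, 26.4 and 30.7 in H77L and 24.9, 28.6 and 37.1 in C118F mice (lowest, median, highest), and neither line overlapped the control mice. Nrp1 differed by -1.23 (SE 0.13, adjusted p = 3.0e-06) in H77L and -1.04 (SE 0.15, adjusted p = 1.1e-04) in C118F mice. Nrp2 was at 0.119, 0.190 and 0.432 TPM in control, 0.979, 2.33 and 4.25 in H77L and 2.92, 3.76 and 7.43 in C118F mice. It was again higher in each knock-in mouse than in any control mouse. In C118F mice the difference was 2.01 (SE 0.22, adjusted p = 9.7e-06), and 1.82 without mouse 2, the library of lowest depth and the highest Nrp2 value. In H77L mice 1 of 6 mice was just under 1 TPM, so Nrp2 had no test there, and without the filter its difference was 1.38 (SE 0.21, adjusted p = 9.8e-04).
Angptl2 was not called in either line under Btz, at a log2 difference of 0.33 (95% confidence interval 0.05 to 0.60, adjusted p = 0.0849) in H77L and 0.19 (95% confidence interval -0.12 to 0.51, adjusted p = 0.356) in C118F mice.

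**Figure D3:**
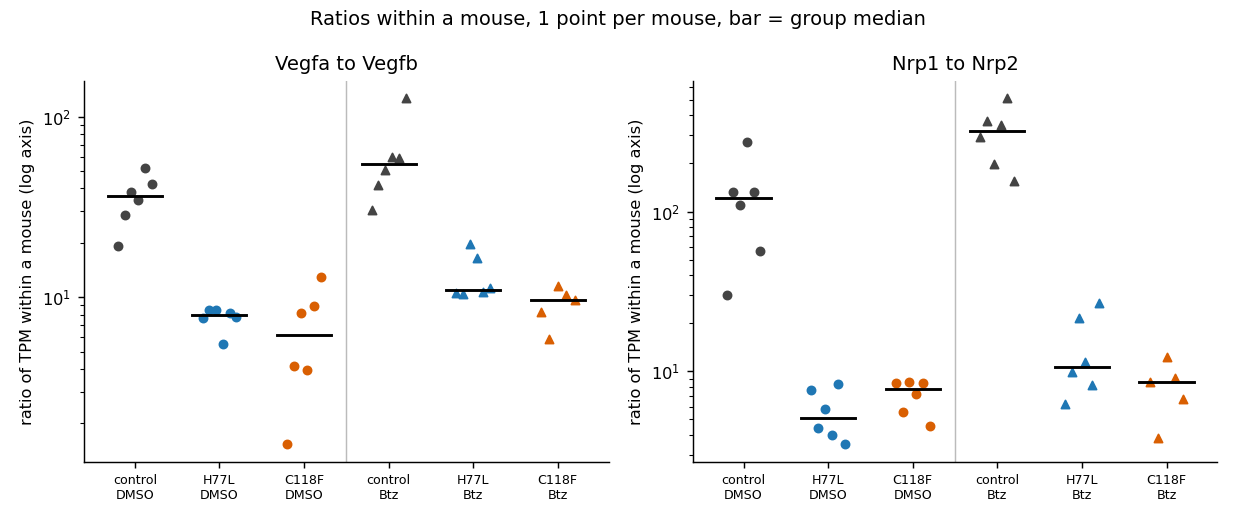
Ratio of Vegfa to Vegfb TPM (left) and of Nrp1 to Nrp2 TPM (right) within each of 35 mice on a log axis (vertical), by genotype and treatment (horizontal), with the group median as a bar. The ratios of the knock-in mice are below those of every control mouse under the same treatment.

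Whether Btz moved these genes within a genotype was asked by comparing Btz- with DMSO-treated mice. None of the 10 genes was called in any genotype. In control mice 0% of 10659 genes were called by limma (923 at an unadjusted p under 0.05, and 0 adjusted calls by limma voom on recovered reads), in H77L mice 1.16% of 10813, and in C118F mice 0% of 10814 (634 at an unadjusted p under 0.05, and 0 by voom). The difference of Vegfa was positive in all 3 genotypes, at 0.43 (95% confidence interval 0.01 to 0.85, adjusted p = 0.573) in control, 0.40 (0.14 to 0.65, adjusted p = 0.0943) in H77L and 0.67 (-0.07 to 1.42, adjusted p = 0.813) in C118F mice. Sema3g differed by -0.32 (-0.86 to 0.22) in control, 0.37 (-0.01 to 0.74) in H77L and 0.76 (-0.02 to 1.54) in C118F mice. In H77L mice Vegfb (-0.35, adjusted p = 0.082) and Nrp2 (-0.96, adjusted p = 0.0882) were lower under Btz without passing the threshold. The intervals of Vegfa in control and H77L mice and of Vegfb and Nrp2 in H77L mice did not include 0, without adjustment over all genes.

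The difference between genotypes in their response to Btz was tested as an interaction. No gene was called for H77L against control (0% of 11163, with 2037 at an unadjusted p under 0.05), for C118F against control (0% of 11197, with 560) or for H77L against C118F (0% of 11046, with 840), and voom gave 0 calls in all 3. Among the 6 tested genes, Sema3g had the largest interaction against control in both lines. Its change under Btz exceeded that of control mice by 0.69 on the log2 scale (95% confidence interval 2e-04 to 1.37, adjusted p = 0.274 by limma) in H77L and by 1.08 (0.10 to 2.05, adjusted p = 0.948) in C118F mice. These comparisons share the same control mice. The interaction of Vegfa was -0.04 (-0.54 to 0.47) and 0.24 (-0.62 to 1.11).

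Since H77L and C118F affect different LIM domains, the knock-in lines were also compared directly. None of the 10 genes was called under DMSO, where 0% of 10809 genes were called (416 at an unadjusted p under 0.05, and 0 by voom), or under Btz, where 0.972% of 10803 were called. Under DMSO, C118F minus H77L was -0.59 for Sema3g (95% confidence interval -1.07 to -0.11, adjusted p = 0.931), -0.34 for Vegfa (-0.99 to 0.30), 0.34 for Nrp1 (-0.04 to 0.72) and -0.46 for Angptl2 (-0.996 to 0.07). Under Btz the largest differences were those of Nrp2 (0.63, adjusted p = 0.302) and Vegfb (0.45, 95% confidence interval 0.22 to 0.67, adjusted p = 0.0568). For Vegfb, 4 of 5 C118F mice were above all H77L mice. Without Btz-treated C118F mouse 1, the lowest of its group, the Vegfb difference was 0.52 (adjusted p = 0.0151), without H77L mouse 1 it was 0.49 (adjusted p = 0.042), and with median-of-ratios scaling it was 0.42 (adjusted p = 0.0441), and leaving out the other mice one at a time gave no call.

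Ordered by their medians under DMSO, control podocytes had Vegfa, Sema3g and Angptl2 at medians of 1218, 1030.5 and 1002 TPM with overlapping values, then Nrp1 and Vegfb, also overlapping, and Nrp2 at 0.541 TPM. In H77L mice the order was Angptl2, Vegfa, Sema3g, Vegfb, Nrp1 and Nrp2, and the values of neighbouring genes did not overlap. In C118F mice the order was that of H77L mice, with overlapping values of Angptl2 and Vegfa, of Vegfa and Sema3g, and of Sema3g and Vegfb. By their medians, Vegfb and Nrp1 changed places between control and both knock-in lines.

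The remaining 4 genes did not reach 1 TPM in every mouse of any group and had no test. Vegfc, the ligand of the lymphatic receptor Flt4, had 0 reads in 25 of 35 mice and at most 11. DMSO-treated C118F mice had the highest group median of Vegfc, 0.297 TPM, with values of 0 to 0.783 that overlapped those of control mice. Vegfc was listed at 0 in all 11 Btz-treated knock-in mice. There 3 reads, the limit that a count of 0 allows, correspond to medians of 0.239 TPM in H77L and 0.205 in C118F mice. In Btz-treated C118F mouse 2, the library of lowest depth, 3 reads correspond to 0.840 TPM, so its 0 says little. Sema3a also had 0 reads in 25 mice and at most 34. Angpt1 had 0 reads in 16 mice and at most 86. Flt1 had 0 reads in 6 mice and 1 to 158 in the others, at a median of 0.190 TPM.

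The highest Flt1 (2.04 TPM) and the highest Angpt1 (2.88 TPM) of all mice came from DMSO-treated C118F mouse 1, with endothelial markers at 213.4 TPM. The next highest Flt1 (1.69 TPM), and the highest Vegfc (0.863 TPM) and Sema3a (0.471 TPM), came from DMSO-treated control mouse 1, with endothelial markers at 85.3 TPM, the second highest sum. How far RNA of other cells accounts for these reads was not tested. Without the filter, no difference from control in these 4 genes had an adjusted p under 0.05, with the lowest at 0.301 for Flt1 in DMSO-treated H77L mice.

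**Figure D4:**
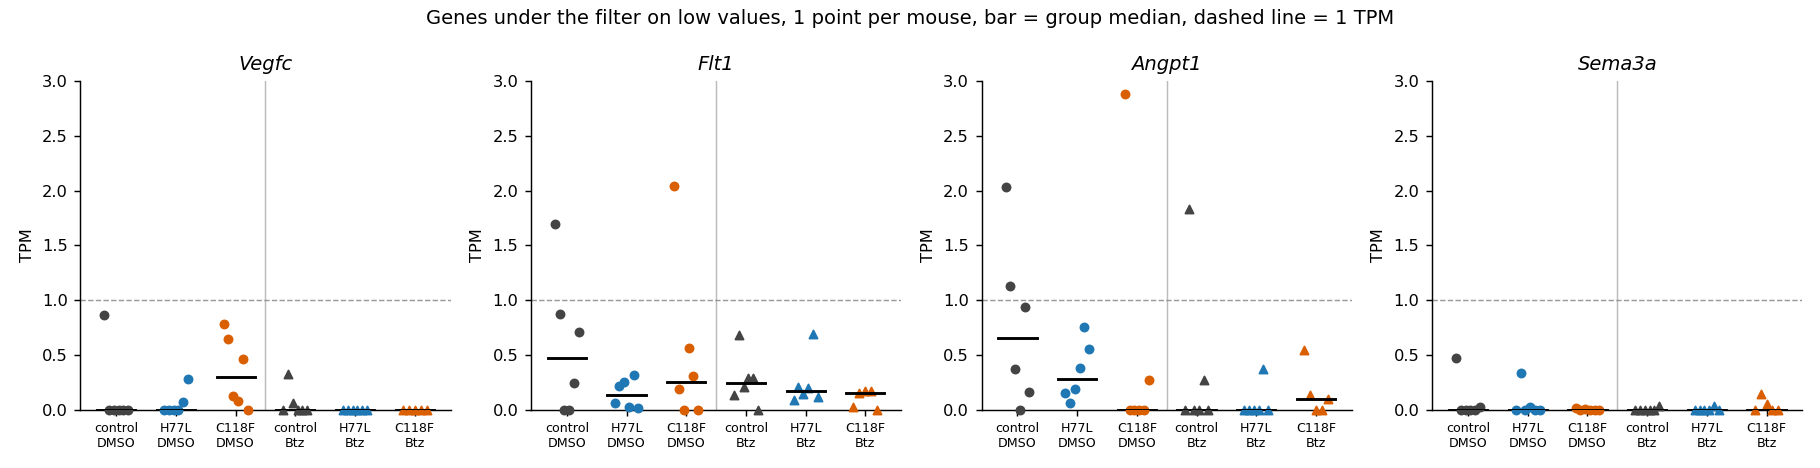
TPM (vertical) of Vegfc, Flt1, Angpt1 and Sema3a in each of 35 mice by genotype and treatment (horizontal), with the group median as a bar and 1 TPM as a dashed line. Values stay below 1 TPM apart from 2 mice for Flt1 and 4 mice for Angpt1, and DMSO-treated C118F mouse 1 is the highest for both.

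The partner receptors of the secreted signals were as scarce. Over 35 mice the median was 1.08 TPM for Kdr, 0.672 for Tek, 0.390 for Tie1 and 0.0578 for Flt4. None of the 3 VEGF receptors and none of the 6 angiopoietins and TIE receptors passed the filter in a comparison with control.

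Plexins, the signalling partners of the neuropilins, were expressed by the podocytes. Of 11 neuropilins and plexins, 8 were tested under DMSO, and 5 were called higher and 1 lower in H77L and 4 higher and 1 lower in C118F mice, at a median log2 difference of 0.89 and 0.64 (all genes tested: -0.01 and -0.06). Over all genes, 22.4% were called higher and 22.4% lower in H77L and 13.7% and 16.6% in C118F mice. Nrp2 and Plxna2 are among the genes counted as higher and in these medians, though they passed the filter only through the knock-in groups. Under Btz 3 of 7 were called higher and 1 lower in H77L, and 4 of 8 higher and 1 lower in C118F mice, beside 12.5% and 11% of all genes in H77L and 15.1% and 12.4% in C118F mice. The called plexins in both lines under DMSO were Plxnd1, a semaphorin receptor best known from vessels, Plxna1 and Plxna2. Plxnd1 had a median of 4.77 TPM in control, 20.7 in H77L and 11.8 in C118F mice, and differed by 1.95 (SE 0.20, adjusted p = 3.6e-06) and 1.16 (SE 0.32, adjusted p = 0.0148). Plxna1 went from a median of 12.4 TPM to 34.1 and 34.4, with log2 differences of 1.24 (adjusted p = 1.1e-04) and 0.99 (adjusted p = 0.0412). Plxna2, like Nrp2, passed the filter only through the knock-in groups, with a control median of 0.520 TPM. The filter therefore favoured a difference, and nothing is read from its calls. Plxnd1 and Plxna1 were also called higher in both lines under Btz. Plxna2 was called there too, with the same limit.

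Among the 7 class 3 semaphorins 4 were tested, and Sema3g was the only one called in each of the 4 comparisons with control. Sema3b, Sema3e and Sema3f had log2 differences between -0.38 and 0.42, none of which passed the test. Of the 13 membrane semaphorins 5 were tested in DMSO-treated H77L mice (1 higher, 2 lower) and 7 in C118F mice (1 higher, 2 lower), where the shares of all genes were 22.4% each way and 13.7% and 16.6%. Sema6c and Sema5a were the lower ones in both lines. Sema6c was at a median of 15.5 TPM in control, 5.99 in H77L and 5.15 in C118F mice, with log2 differences of -1.22 (SE 0.25, adjusted p = 0.00122) and -1.25 (SE 0.23, adjusted p = 8.9e-04). Sema5a had differences of -0.57 (adjusted p = 0.00211) and -0.78 (adjusted p = 0.0108).

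Of 7 angiopoietin-like genes, 4 were tested under DMSO, with 2 higher and 1 lower in H77L (all genes: 22.4% each way) and 1 higher and 2 lower in C118F mice (all genes: 13.7% and 16.6%). Angptl4, a secreted inhibitor of lipoprotein lipase, was at a median of 24.2 TPM in control, 90.5 in H77L and 62.7 in C118F mice. It was called higher in both lines, with log2 differences of 1.48 (SE 0.46, adjusted p = 0.0167) and 1.17 (SE 0.32, adjusted p = 0.0121). Under Btz the medians were 11.8 TPM in control, 15.7 in H77L and 18.3 in C118F mice, and the log2 difference between Btz- and DMSO-treated H77L mice was -2.01 (SE 0.43, adjusted p = 0.0419). Angptl6 was the lower gene in H77L mice (-0.76, adjusted p = 0.0165), and Angptl6 (-1.004, adjusted p = 0.00971) and Angptl7 (-1.68, adjusted p = 0.00822) in C118F mice.

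Of 22 other genes by which podocytes can signal to the endothelium, 13 were tested under DMSO. In H77L mice 4 were called higher and 3 lower, where 22.4% of all genes were called each way. In C118F mice 2 were higher and 2 lower, near the shares of all genes (13.7% and 16.6%). Pdgfa, a platelet-derived growth factor chain, and Ccn2, a matricellular protein, were higher in both lines. Pdgfa had log2 differences of 1.73 (SE 0.42, adjusted p = 0.00435) in H77L and 2.44 (SE 0.43, adjusted p = 7.1e-04) in C118F mice. It passed the filter only through the knock-in groups, in which it was high (control median 0.938 TPM). The filter therefore favoured a difference, and nothing is read from its call. Ccn2 differed by 1.71 (adjusted p = 1.0e-04) and 1.73 (adjusted p = 7.3e-05). Vash1, which codes for the angiogenesis inhibitor vasohibin, had differences of -1.21 (adjusted p = 0.00149) and -0.82 (adjusted p = 0.0241), and passed the filter only through the control mice, in which it was high.

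Vegfa is a textbook target of hypoxia-inducible factors, so the genes of that pathway were read as well. Of 13 genes 12 were tested under DMSO, with 4 higher and 2 lower in H77L (all genes: 22.4% each way) and 2 higher and 2 lower in C118F mice (all genes: 13.7% and 16.6%), at medians of 0.01 and 0.01 (all genes tested: -0.01 and -0.06). Epas1, the alpha subunit HIF-2, had log2 differences of 1.11 (SE 0.15, adjusted p = 3.9e-05) and 0.68 (SE 0.18, adjusted p = 0.0101). Egln3, a prolyl hydroxylase and hypoxia target, had 0.73 (adjusted p = 0.0194) and 1.02 (adjusted p = 0.00269). Hif1a (0.51, adjusted p = 7.0e-04 by limma) and Arnt (0.54, adjusted p = 0.00126) were called higher in H77L mice only. In H77L mice Pdk1 of the same list was called lower (-0.50, adjusted p = 0.0446 by limma). Slc2a1 (0.03), Bnip3 (0.17) and Ndrg1 (-0.06) were not called there. Hif1an, which hydroxylates the alpha subunits, had -0.69 (adjusted p = 6.7e-04) and -0.90 (adjusted p = 0.00377).

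The marker lists moved as follows in the same comparisons. Of 12 podocyte markers 9 were called lower in each line under either treatment, where 22.4% (H77L) and 16.6% (C118F) of all genes were lower under DMSO and 11% and 12.4% under Btz, and 1 was called higher in H77L mice under DMSO. The list stood at a median log2 difference of -1.05 in H77L and -1.32 in C118F mice under DMSO. Beside these, Vegfa differed by -1.07 and -1.41 and Sema3g by -2.36 and -2.95. The podocyte marker Synpo, which codes for an actin-associated protein, differed by -2.06 and -2.44. Of 10 mesangial and smooth muscle markers 4 were tested under DMSO and called higher in both lines, among them Des (3.81 and 4.06) and Pdgfrb (3.90 and 3.10), while Mcam and Cspg4 passed the filter only through the knock-in groups, in which they were high. The defining markers Itga8 and Gata3 had group medians of at most 0.264 and 0.363 TPM. Of 8 parietal markers 3 were tested and 2 called higher in both lines. Over all genes, 22.4% were called higher in H77L and 13.7% in C118F mice under DMSO. The parietal markers Krt8 and Krt18, which had no test, were at medians of 2.46 and 5.29 TPM in control mice. Their medians were 0.541 and 1.39 TPM in H77L and 0.192 and 0 TPM in C118F mice. Tubule markers had a median sum of 145 TPM in control, 19.3 in H77L and 29.4 in C118F mice, with overlapping values. Of 10 leukocyte markers 2 were tested in H77L (1 higher, 0 lower) and 3 in C118F mice (1 higher, 1 lower) under DMSO. Under Btz 1 was tested in H77L and 2 in C118F mice. All were called higher, beside 12.5% and 15.1% of all genes. They were Csf1r in both lines (1.45 and 1.69) and Cd68 in C118F mice, which passed the filter only through that group. The part of these shifts in the values of the 10 genes was not tested.

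As a description over 35 mice, the genes most like Vegfa were Lrrc1 (Pearson r = 0.93), Thsd7a (0.93) and Magi2 (0.92), out of 11306 genes compared on the log2(TPM + 1) scale. After subtraction of the group means r was 0.81, 0.80 and 0.78, so the likeness also held between mice of a group. Libraries share depth and podocyte content, which r does not separate. Among the 10 genes, Vegfa and Angptl2 had the highest r of deviations from group means at 0.77, against 0.26 over all mice. DMSO-treated C118F mouse 1, a library that stood apart, had the lowest value of all mice for both genes (157.6 and 419 TPM). Its part in these r values was not tested. For Vegfa and Sema3g r was 0.82 over all mice and 0.46 within groups, and for Vegfa and Nrp2 it was -0.75 and -0.06.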

How the data were processed

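Podocyte RNA of 35 mice was analysed from 1 table of TPM, which the authors deposited for 33292 Ensembl genes. Per the labels and the study's methods, libraries were made with the SMART-Seq mRNA LP kit, reads trimmed (Trim Galore 0.6.7), aligned (STAR) to GRCm39, checked for PCR duplicates (Picard) and counted (featureCounts 1.6.3). The strand setting of the counting is not given in the sources used here. TPM hide sequencing depth, so reads were recovered from the steps in the values (tolerance 0.05 reads, 7 of 23943 expressed genes not recovered). PCR reads are not independent molecules, so the floor of 3 reads covers counting error only.

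Groups followed the labels, with WT taken as Lmx1b+/lox. Mice were numbered in accession order. Genes above 1 TPM in every mouse of at least 1 group were tested with limma 3.58.1 (R 4.3.3) on log2(TPM + 1), with trend, over the groups compared, and adjusted (Benjamini-Hochberg) over all genes tested. A call had an adjusted p under 0.05. The method was tested on simulated data. The tests took the spread between mice, moderated by limma over all genes tested, as their error. The 10 genes and all lists were chosen with earlier results of these data known. All 10 genes were named in each comparison. Of the listed partners, at most 3 rises and 3 falls called under DMSO were named per list, and for Vegfa the 3 genes with the highest r. The hypoxia list, with 4 rises named, is the exception. Alternatives were a pseudocount of 0.1, no filter, all mice in 1 fit, median-of-ratios scaling, mouse number as a covariate, robust eBayes and each mouse left out. Chosen after seeing the data were voom on recovered reads and leaving out 4 libraries. An item withheld from the text is not reported here.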

Additional observations from a re-analysis of the deposited data

Results flagged for a closer look

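In 18 of 58 combinations of gene and group with any spread, a single mouse lay far from the others of its group by Dixon's test, where chance alone gives about 1 in 20. Of these, 13 belonged to the 4 scarce genes, in which a few reads in 1 mouse stand against 0. Vegfc was at 0.863 TPM in DMSO-treated control mouse 1, 0.278 in DMSO-treated H77L mouse 6 and 0.324 in Btz-treated control mouse 2. Flt1 was at 2.04 TPM in DMSO-treated C118F mouse 1 and 0.693 in Btz-treated H77L mouse 5. Angpt1 was at 2.88 TPM in DMSO-treated C118F mouse 1, 1.83 in Btz-treated control mouse 2, 0.373 in Btz-treated H77L mouse 5 and 0.541 in Btz-treated C118F mouse 1. Sema3a was at 0.471 TPM in DMSO-treated control mouse 1, 0.331 in DMSO-treated H77L mouse 2, 0.0307 in Btz-treated control mouse 6 and 0.0382 in Btz-treated H77L mouse 5.

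Nrp2 was highest in DMSO-treated control mouse 1 (1.87 TPM, others 0.220 to 0.706), DMSO-treated H77L mouse 6 (11.2 TPM, others 3.06 to 5.99) and Btz-treated C118F mouse 2 (7.43 TPM, others 2.92 to 3.82), the library with the lowest depth. Nrp1 was also highest in DMSO-treated H77L mouse 6 (39.0 TPM, others 23.4 to 28.0). Vegfb was lowest in Btz-treated C118F mouse 1 (60.3 TPM, others 76.1 to 81.5).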

How the results depend on the processing

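The 6 tested genes gave 70 values over 12 comparisons, of which 20 were called. Under 8 alternatives other than leaving out a mouse, 558 of 560 values kept their side of the threshold and their direction where called, none was lost or reversed, and 11 uncalled values changed sign. The 2 gains were Angptl2 in Btz-treated H77L mice with voom (0.33, adjusted p = 0.042) and Vegfb in C118F against H77L mice under Btz with median-of-ratios scaling (0.42, adjusted p = 0.0441), which raised the number of genes called in that comparison from 0 to 1. Leaving out each mouse in turn gave 0 to 1 calls there, with the additional call (Vegfb) made without H77L mouse 1 (0.49) or C118F mouse 1 (0.52). The pseudocount moved the size of Nrp2, from 2.01 to 3.65 in Btz-treated C118F mice. Scaling moved the median of all genes by less than 0.1 in every comparison.

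No paired analysis was possible because the labels give no replicate numbers shared between groups. The titles hold a number for each mouse, used above as a covariate, and its range differs between groups. Whether its order reflects a cohort is not given by the labels. Vegfc, Flt1, Angpt1 and Sema3a had at most 158 reads in a mouse, which limits the precision of their values.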
